A study of Homo sapiens with 2 samples.

Results

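The mitochondrial carriers of the SLC25 family, with both subunits of the pyruvate carrier, were followed in Huh7 cells, an established human hepatocellular carcinoma line, with an shRNA against USP22 and with a control shRNA. Members were taken by gene symbol, as every listed SLC25A gene plus MPC1 and MPC2 and without SLC25A1, which gave 39 of the 11976 genes in the tables. Each of the 39 was on a single row, and none was listed at 0 in either library. Messenger RNA was sequenced from 1 library of Huh7 cells transfected with USP22 shRNA and from 1 library of Huh7 cells given the control shRNA. USP22 is the deubiquitinase of SAGA, a chromatin complex, and an shRNA is a short hairpin RNA that lowers the level of its target transcript. The labels name no clone, no time after transfection and no shRNA sequence.

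SLC25 carriers are small membrane proteins, most of them of the inner mitochondrial membrane, that exchange nucleotides, phosphate, keto acids, amino acids and cofactors between the matrix and the cytosol. MPC1 and MPC2 belong to a different family, and together they form the carrier that brings pyruvate from glycolysis into the matrix. In liver these carriers link the urea cycle, gluconeogenesis, fatty acid oxidation and iron use to mitochondrial metabolism.

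With 1 library per group there is no replicate error, so no test was possible, and each statement of higher or lower holds for this pair of libraries. The header of the deposited tables names no unit, and FPKM (fragments scaled by transcript length and library size) was assumed. The values sum to 218955 in the USP22 knockdown library and 244301 in the control library, and read depth is unknown, so no counting interval can be given. USP22 itself was at 7.67 FPKM in the USP22 knockdown library and 58.1 FPKM in the control library, 7.57-fold lower in the knockdown. All 8 hepatocyte markers were listed in both libraries, summing to 1174 FPKM in the USP22 knockdown and 1998 FPKM in the control. AFP, at 347 FPKM in the knockdown and 270 FPKM in the control, and APOB, at 100.04 FPKM in the knockdown and 51.4 FPKM in the control, were above their control level, and the other 6 were below it. Of 6 blood markers 2 were listed (LYZ and CD14), with summed levels of 94.3 FPKM in the knockdown and 388 FPKM in the control, nearly all of it LYZ. Of 6 endothelial and stromal markers 2 were listed (COL1A2 and COL3A1), with sums of 14.4 FPKM in the knockdown and 11.7 FPKM in the control. The part of these levels in the carrier ratios was not tested. Both libraries are of the Huh7 line. In bulk RNA a change in the mix of cells within the line and a change in RNA per cell cannot be told apart.

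The carriers held a smaller share of the summed level of the listed genes in the USP22 knockdown. Their levels added up to 704 FPKM in the USP22 knockdown library and 987 FPKM in the control library, or 0.322% and 0.404% of each library's sum. Levels within the family spanned 0.233 to 228 FPKM in the knockdown and 0.201 to 343 FPKM in the control. The ADP/ATP carrier SLC25A5 was the most abundant member in both libraries and made up 32.3% of the carrier sum in the knockdown and 34.7% in the control. Much of the difference in sums lay in the ADP/ATP carriers. The other 36 carriers summed to 414 FPKM in the knockdown and 511 FPKM in the control.

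The ratio of a gene was taken as log2 of (USP22 knockdown + 1) over (control + 1), which understates the change of low genes. Folds given with the levels of a gene are plain ratios of its FPKM without the added 1, so for scarce genes they exceed the fold that the log2 ratio gives. The filter asked for a mean of 1 FPKM or more across both libraries, which 36 carriers and 10195 genes in all passed, and a ratio of at least 1 in size, or 2-fold, was counted as higher or lower. By this rule 6 carriers were higher (SLC25A36, SLC25A24, SLC25A40, SLC25A30, SLC25A51 and SLC25A32) and 6 were lower (SLC25A23, SLC25A22, SLC25A10, SLC25A6, MPC1 and SLC25A11). Each count is 16.7% of the 36, against 24.1% of all genes higher and 12.2% lower. The median ratio was -0.15 over the carriers and 0.098 over all genes. The lower share is near that of all genes, and the higher share is below it. All 6 higher carriers were scarce, at 2.65 to 5.66 FPKM in the knockdown and 0.662 to 1.92 FPKM in the control, and with a mean of at least 5 FPKM required none of 20 carriers was higher and 5 were lower, where 20.2% of 5871 genes were higher and 14.8% lower. The 6 lower ones ranged from 0.619 to 53.9 FPKM in the knockdown and from 6.15 to 124 FPKM in the control.

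**Figure D1:**
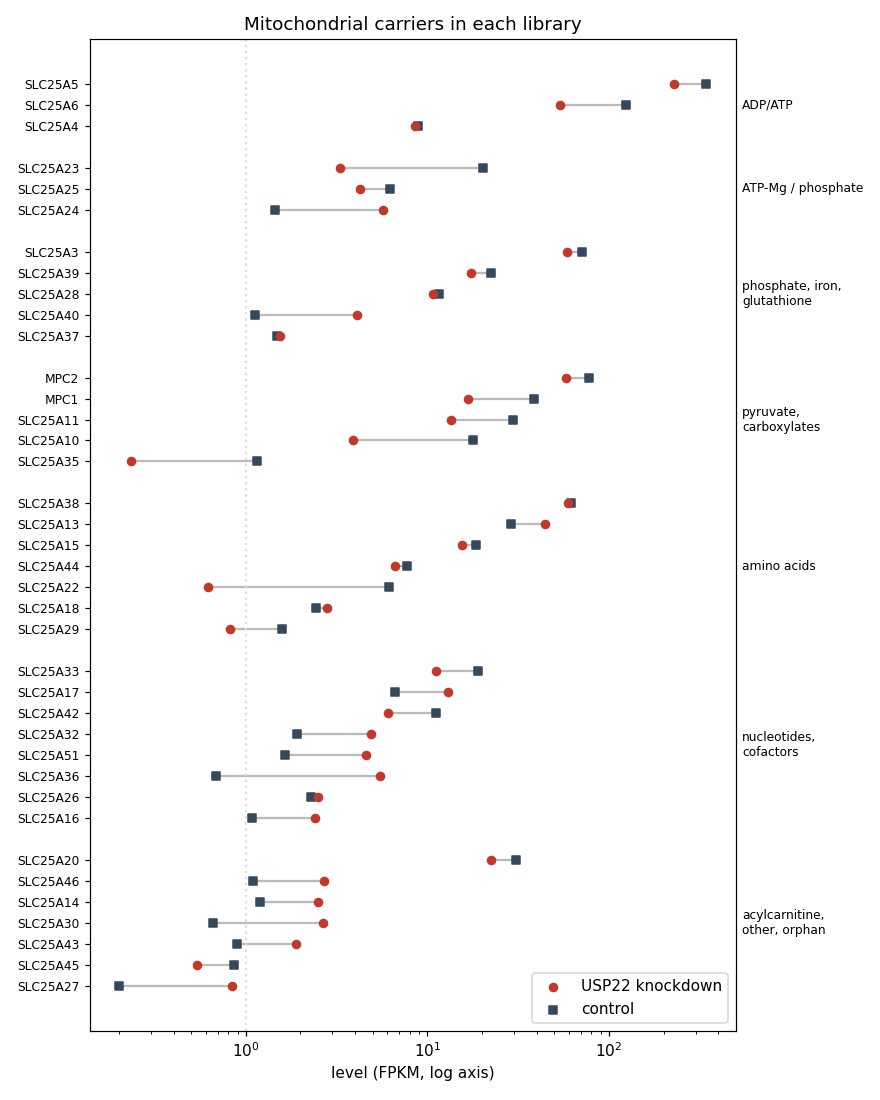
Level of the carriers in FPKM on a log axis, grouped by substrate, with the USP22 knockdown library as circles and the control library as squares (1 library each, so no error bars). The abundant ADP/ATP and pyruvate carriers lie left of their control values in the knockdown, while several carriers near 1 FPKM in the control lie to the right; the dotted line marks 1 FPKM.

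The ratios followed the GC content of the transcripts, as they did over all genes. Across the 36 carriers the Spearman correlation of the ratio with GC content of the longest coding transcript was -0.73, and over 10134 genes it was -0.70. These points share the same pair of libraries, and genes are not replicates. The 6 higher carriers had a median GC content of 39.4% and the 6 lower ones 61.1%. In the tenth of genes with the lowest GC content (31.1% to 38.97%) all 3 carriers were higher, as were 712 of 1014 genes. In the tenth with the highest (62.1% to 74.1%) all 3 carriers were lower, as were 353 of 1014 genes.

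After removal of this trend, by subtraction of a lowess curve of the ratio on GC content, 1 carrier was higher and 7 were lower, where 8.45% of 10134 genes were higher and 8.92% lower. The carrier median was then -0.19, against 0.0025 over all genes. SLC25A51 was the higher one. MPC1, SLC25A10, SLC25A22 and SLC25A23 were lower both before and after the removal, and MPC2, SLC25A3 and SLC25A33 passed 2-fold only after it. SLC25A6 and SLC25A11 no longer did, at -0.47 and -0.53. Of the other 5 higher carriers, SLC25A36 (0.61) and SLC25A24 (0.16) kept their sign, and SLC25A40 (-0.14), SLC25A30 (-0.056) and SLC25A32 (-0.18) lay below 0. The cause of the GC trend was not tested.

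**Figure D2:**
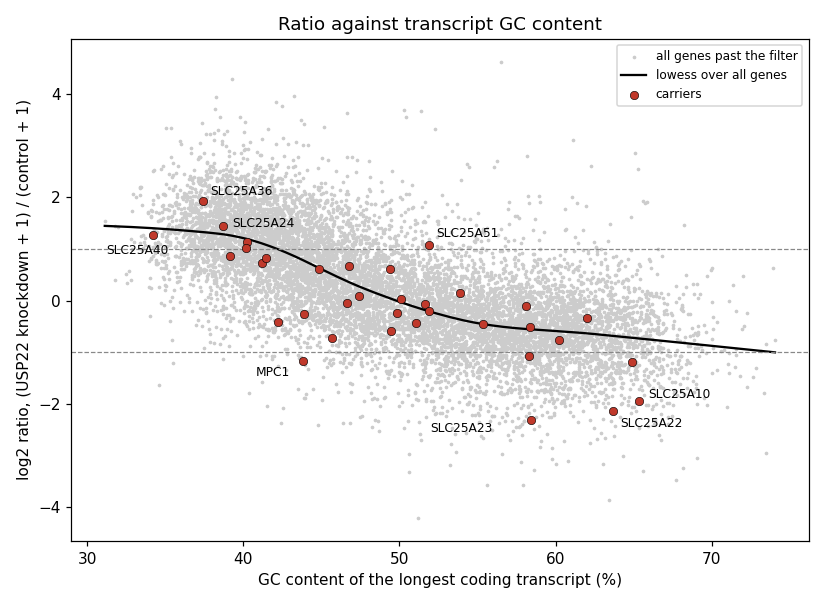
Log2 ratio of the USP22 knockdown over the control library (vertical axis) against GC content of the longest coding transcript in percent (horizontal axis), for all genes past the filter (grey) and carriers (red), with the lowess curve in black and dashed lines at 2-fold. SLC25A51 lies above the curve, and MPC1, SLC25A23, SLC25A22 and SLC25A10 lie below it.

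Promoter sequences are shown for 4 of the carriers past 2-fold both before and after the GC removal and for SLC25A36, the carrier of the highest ratio, since the design asks about loss of a chromatin regulator. They are the 250 bases before the annotated transcription start, taken from RefSeq on build GRCh38.p14 and written 5′ to 3′ on the strand of the gene. SLC25A36 is at chr3:140941586-140941835 on the plus strand, and SLC25A51 at chr9:37904128-37904377 on the minus strand. SLC25A23 is at chr19:6459793-6460042 on the minus strand, and SLC25A22, with the first of its 4 listed starts, at chr11:798282-798531 on the minus strand. MPC1 is at chr6:166382941-166383190 on the minus strand. Capitals mark matches on either strand to the GC box GGGCGG, the CCAAT box CCAAT, the ETS core CCGGAAG, the E-box CACGTG, the NRF1 core GCGCANGCG and the amino acid response motif TGATGNAAT.
SLC25A36: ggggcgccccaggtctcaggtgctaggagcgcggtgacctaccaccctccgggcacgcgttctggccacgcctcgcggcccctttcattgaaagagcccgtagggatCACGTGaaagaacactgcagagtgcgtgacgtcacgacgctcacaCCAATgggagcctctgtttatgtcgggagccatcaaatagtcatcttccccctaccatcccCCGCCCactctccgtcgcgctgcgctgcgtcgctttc
SLC25A51: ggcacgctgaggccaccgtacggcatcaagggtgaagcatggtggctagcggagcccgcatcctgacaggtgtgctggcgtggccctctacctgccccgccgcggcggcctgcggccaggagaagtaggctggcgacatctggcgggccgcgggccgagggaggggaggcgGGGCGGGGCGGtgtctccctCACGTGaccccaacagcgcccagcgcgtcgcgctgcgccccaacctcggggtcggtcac
SLC25A23: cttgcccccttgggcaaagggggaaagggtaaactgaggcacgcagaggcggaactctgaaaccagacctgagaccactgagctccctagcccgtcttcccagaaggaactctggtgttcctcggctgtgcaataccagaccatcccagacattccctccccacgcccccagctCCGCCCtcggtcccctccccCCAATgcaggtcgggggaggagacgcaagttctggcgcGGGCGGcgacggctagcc
SLC25A22: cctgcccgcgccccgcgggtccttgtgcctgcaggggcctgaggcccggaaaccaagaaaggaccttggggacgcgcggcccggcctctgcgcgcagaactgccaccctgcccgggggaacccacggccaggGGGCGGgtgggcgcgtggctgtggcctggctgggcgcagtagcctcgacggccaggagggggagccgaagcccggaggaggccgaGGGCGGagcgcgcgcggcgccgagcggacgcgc
MPC1: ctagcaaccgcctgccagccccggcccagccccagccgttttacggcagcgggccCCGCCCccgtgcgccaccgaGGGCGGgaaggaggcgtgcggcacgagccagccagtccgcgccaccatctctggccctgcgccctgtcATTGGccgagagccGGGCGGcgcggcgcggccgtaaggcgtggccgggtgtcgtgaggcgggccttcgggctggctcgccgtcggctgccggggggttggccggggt

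All 5 of these promoters held at least 1 GC box, with 3 in MPC1, 2 each in SLC25A51 (overlapping), SLC25A23 and SLC25A22, and 1 in SLC25A36. A CCAAT box was found in SLC25A36, SLC25A23 and MPC1, and an E-box in SLC25A36 and SLC25A51. Their GC content ran from 62.8% in SLC25A36 to 78.0% in SLC25A22. Promoters were in the table for 33 of the 39 carriers, with a median GC content of 66.8%, against 65.6% for the 8029 genes past the filter that had an entry. The 33 were not filtered by level and include SLC25A27 and SLC25A45, which did not pass the filter. The GC box was present in 72.7% of the 33, in 69.9% of the 8029 and in 42.3% of all 27305 promoters in the table. For the CCAAT box these shares were 48.5%, 35.6% and 33.0%, and for the ETS core 21.2%, 17.5% and 8.82%. The E-box was in 18.2%, 9.33% and 6.49%, the NRF1 core in 9.09%, 14.5% and 7.02%, and the amino acid response motif in none of the 33, 0.423% and 0.916%. A match is a string of letters in this window and does not show binding.

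All 4 pyruvate and carboxylate carriers past the filter were below their control level, as were 4738 of all 10195 genes past it. Of the 4 carriers, 3 were at least 2-fold lower (75%, against 12.2% of all genes), and none was higher. Their median was -1.12, with a range from -1.95 to -0.41. After GC removal 3 were again lower, MPC2 in place of SLC25A11, against 8.92% of all genes. Summed over 5 listed members, the class stood at 92.2 FPKM in the USP22 knockdown library and 165 FPKM in the control library.

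MPC2 (ENSG00000143158.10_2), the more abundant subunit of the pyruvate carrier, was at 57.8 FPKM in the knockdown and 77.4 FPKM in the control. Its partner MPC1 (ENSG00000060762.18_2) was at 16.7 FPKM in the knockdown and 38.7 FPKM in the control, 2.32-fold lower. Both subunits were lower, MPC1 by more, so that MPC1 made up 22.4% of their summed level in the knockdown and 33.3% in the control. The MPC transcripts have GC contents of 43.8% (MPC1) and 42.2% (MPC2), while genes of 41.5% to 43.9% GC had a median ratio of 0.95. With the GC trend removed the ratios became -1.95 for MPC1, the lowest of all carriers, and -1.41 for MPC2. The MPC2 gene overlaps exons of DCAF6 on the opposite strand, and the use of strand in quantification is unknown here.

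SLC25A10 (ENSG00000183048.11_3), which exchanges malate and succinate for phosphate, was at 3.91 FPKM in the USP22 knockdown and 17.9 FPKM in the control, 4.58-fold lower. Its log2 ratio of -1.95 became -1.21 with the GC trend removed, and its exons overlap AC139530.2 on the same strand. SLC25A11, the oxoglutarate and malate exchanger of the malate-aspartate shuttle, was at 13.5 FPKM in the knockdown and 29.7 FPKM in the control, a log2 ratio of -1.08. It overlaps RNF167 on the opposite strand, and its ratio was inside 2-fold with the GC trend removed. The scarce SLC25A35, which did not pass the filter, was at 0.233 FPKM in the knockdown and 1.16 FPKM in the control.

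ADP/ATP carriers, which bring ADP into the matrix and release ATP, were the most abundant class at a sum of 290 FPKM in the USP22 knockdown library and 476 FPKM in the control library. All 3 listed members were below their control level, as were 4738 of the 10195 genes past the filter. SLC25A6 alone passed 2-fold (33.3% of the class, against 12.2% of all genes lower). SLC25A5 (ENSG00000005022.5_2), the form of dividing cells, was at 228 FPKM in the knockdown and 343 FPKM in the control, a log2 ratio of -0.59. SLC25A6 (ENSG00000169100.13_2), a broadly expressed form, was at 53.9 FPKM in the knockdown and 124 FPKM in the control, 2.30-fold lower. SLC25A4, the form of heart and muscle, was at 8.505 FPKM in the knockdown and 8.87 FPKM in the control. With the GC trend removed none of the 3 passed 2-fold, at -0.63 for SLC25A5, -0.47 for SLC25A6 and -0.43 for SLC25A4. The annotation names 9 pseudogenes of SLC25A5 and 6 of SLC25A6, so reads may be split between copies and these levels are uncertain.

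ATP-Mg/phosphate carriers, which have calcium-binding domains and adjust the adenine nucleotide content of the matrix, were split. SLC25A23 was lower, SLC25A24 higher and SLC25A25 inside 2-fold. The lower and the higher call are each 33.3% of the 3 genes, against 12.2% of all genes lower and 24.1% higher. With the GC trend removed SLC25A23 alone passed 2-fold, where 8.92% of all genes were lower. SLC25A23 (ENSG00000125648.14_3) was at 3.31 FPKM in the USP22 knockdown and 20.3 FPKM in the control, 6.13-fold lower. Its log2 ratio of -2.30 was the lowest of the carriers, at rank 82 from the lowest of 10195 genes, and was -1.75 with the GC trend removed. SLC25A24 was at 5.66 FPKM in the knockdown and 1.46 FPKM in the control, 3.89-fold higher. SLC25A25 was at 4.25 FPKM in the knockdown and 6.23 FPKM in the control. SLC25A24, SLC25A25, SLC25A32 and SLC25A40 all overlap exons of genes on the opposite strand, which makes their levels uncertain. SLC25A32 also overlaps AC012213.5 on the same strand.

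The most abundant form of this trio therefore differed between the libraries. SLC25A24 held 42.8% of the summed level of the 3 genes in the knockdown and 5.21% in the control, and SLC25A23 held 25.01% in the knockdown and 72.5% in the control. The SLC25A24 transcript has a GC content of 38.7% and that of SLC25A23 58.5%. The log2 ratios of SLC25A23 and SLC25A24 differed by -3.74 before and by -1.90 after removal of the GC trend.

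**Figure D3:**
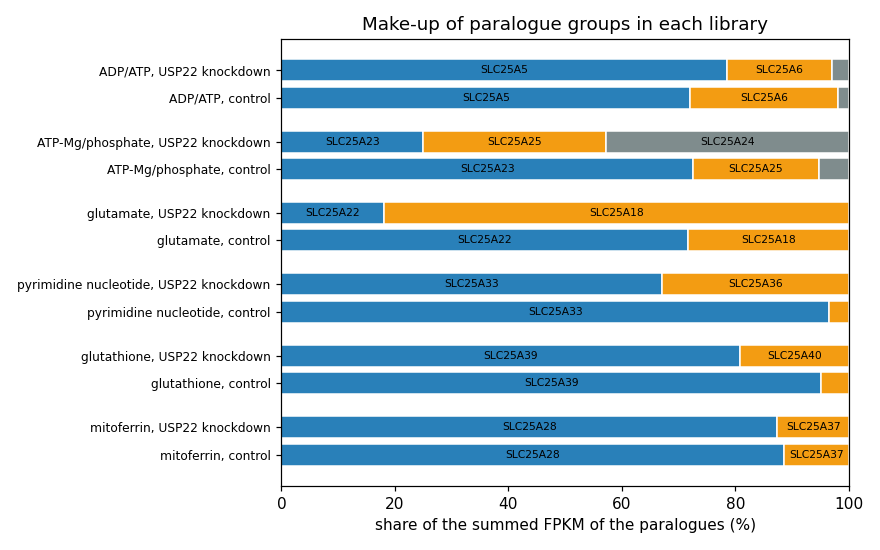
Share of each paralogue in the summed FPKM of its group, in percent, with the USP22 knockdown library above the control library in each pair of bars (1 library each). SLC25A24 takes 42.8% of the ATP-Mg/phosphate group in the knockdown and 5.21% in the control, while the mitoferrin shares differ by little.

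Among amino acid carriers 1 of 7 members past the filter was lower (14.3%, near the 12.2% of all genes) and none was higher, with a median of -0.19 and sums of 130 FPKM in the USP22 knockdown and 127 FPKM in the control. SLC25A22 (ENSG00000177542.10_4), a glutamate and proton carrier, was at 0.619 FPKM in the knockdown and 6.15 FPKM in the control, 9.93-fold lower. Its log2 ratio of -2.14 was -1.46 with the GC trend removed, and it overlaps PANO1 on the opposite strand. SLC25A18, the other glutamate carrier, was at 2.81 FPKM in the knockdown and 2.43 FPKM in the control, and held 82.0% of the sum of the pair in the knockdown and 28.3% in the control.

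The abundant amino acid carriers stayed inside 2-fold. SLC25A38, which imports glycine for haem synthesis, was at 59.3 FPKM in the USP22 knockdown and 61.8 FPKM in the control. SLC25A13, or citrin, the aspartate and glutamate exchanger of liver, was at 44.5 FPKM in the knockdown and 28.9 FPKM in the control, a log2 ratio of 0.61, or -0.021 once the GC trend was taken out. SLC25A15, the ornithine carrier of the urea cycle, was at 15.6 FPKM in the knockdown and 18.5 FPKM in the control. The log2 ratios of SLC25A44, which imports branched-chain amino acids, and of SLC25A29, a carrier of basic amino acids, were -0.19 and -0.51.

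Carriers of nucleotides, cofactors and vitamins had a median of 0.72, with 3 of 9 members higher (33.3%, against 24.1% of all genes) and none lower. The median GC content of these 9 was 45.7%. With the GC trend removed their median was -0.19, with 1 higher and 1 lower, where 8.45% of all genes were higher and 8.92% lower. SLC25A36 (ENSG00000114120.11_3), a pyrimidine nucleotide carrier, was at 5.45 FPKM in the USP22 knockdown and 0.685 FPKM in the control, 7.95-fold higher. Its log2 ratio of 1.94 was the highest of the carriers, at rank 532 of 10195 genes. SLC25A33, its paralogue with pyrimidine substrates, was at 11.1 FPKM in the knockdown and 19.1 FPKM in the control. SLC25A36 thus made up 32.9% of the pair in the knockdown and 3.47% in the control, while their summed level was 16.5 FPKM in the knockdown and 19.8 FPKM in the control. With the GC trend removed SLC25A33 stood at -1.24 and SLC25A36 at 0.61.

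SLC25A51 (ENSG00000122696.13_3), which carries NAD into the matrix, was at 4.58 FPKM in the USP22 knockdown and 1.65 FPKM in the control, 2.77-fold higher. Its transcript has a GC content of 51.9%, and its log2 ratio was 1.07 before and 1.28 after the GC trend was taken out. It overlaps AL138752.2 on the same strand, and the annotation names 3 pseudogenes of it. With TMM scaling, median centring or a pseudocount of 5 its ratio was inside 2-fold, lowest at 0.53 with that pseudocount. SLC25A32, the folate carrier, was at 4.89 FPKM in the knockdown and 1.92 FPKM in the control, a log2 ratio of 1.011 at the edge of the rule. SLC25A17, a peroxisomal carrier of coenzyme A and related cofactors, was at 12.9 FPKM in the knockdown and 6.63 FPKM in the control. SLC25A42, the mitochondrial coenzyme A carrier, was at 6.10 FPKM in the knockdown and 11.1 FPKM in the control. The ratios of SLC25A26, the S-adenosylmethionine carrier, and SLC25A16 were 0.082 and 0.72.

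For phosphate, iron and glutathione, 1 of 5 members was higher (20%, near the 24.1% of all genes) and none was lower, with a median of -0.11. SLC25A3 (ENSG00000075415.12_3), the phosphate carrier that feeds ATP synthase, was at 58.9 FPKM in the USP22 knockdown and 70.9 FPKM in the control. Its log2 ratio of -0.27 became -1.04 with the GC trend removed. The mitoferrins, which import iron, differed little. SLC25A28 was at 10.7 FPKM in the knockdown and 11.6 FPKM in the control, and SLC25A37 at 1.54 FPKM in the knockdown and 1.49 FPKM in the control. SLC25A39, which imports glutathione, was at 17.3 FPKM in the knockdown and 22.3 FPKM in the control. Its paralogue SLC25A40 was at 4.10 FPKM in the knockdown and 1.13 FPKM in the control, 3.63-fold higher, and made up 19.1% of the pair in the knockdown and 4.83% in the control. These glutathione carriers have transcripts of 62.0% (SLC25A39) and 34.2% (SLC25A40) GC, and with the trend removed their ratios were 0.29 and -0.14.

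In the remaining class SLC25A20, the carnitine and acylcarnitine exchanger of fatty acid oxidation, was at 22.4 FPKM in the USP22 knockdown and 30.6 FPKM in the control. The others were scarce. SLC25A30, an uncoupling-protein-like carrier, was at 2.65 FPKM in the knockdown and 0.662 FPKM in the control, 4.01-fold higher, and overlaps TPT1-AS1 on the opposite strand. SLC25A46, an outer-membrane protein of mitochondrial dynamics, was at 2.70 FPKM in the knockdown and 1.09 FPKM in the control, and SLC25A14, another uncoupling-protein-like carrier, at 2.49 FPKM in the knockdown and 1.20 FPKM in the control. SLC25A43 had a log2 ratio of 0.60. Below the filter, SLC25A45 was at 0.535 FPKM in the knockdown and 0.857 FPKM in the control, and SLC25A27 at 0.844 FPKM in the knockdown and 0.201 FPKM in the control.

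**Figure D4:**
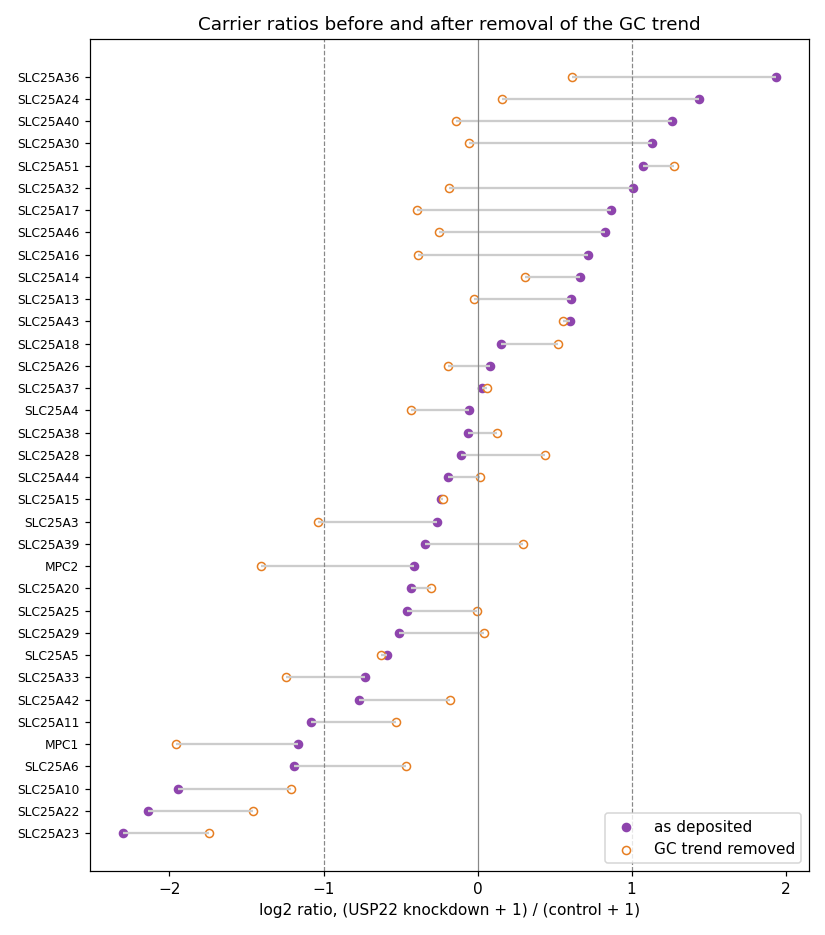
Log2 ratio of the USP22 knockdown over the control library for carriers past the filter, ordered from the highest, from the deposited values (filled) and after GC removal (open), with dashed lines at 2-fold. SLC25A51 is the carrier right of the upper line in both forms, and MPC1, SLC25A10, SLC25A22 and SLC25A23 lie left of the lower line in both.

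The machinery that imports carriers, made of the outer-membrane TOM complex, the small TIM chaperones and the TIM22 complex, had a median of -0.48 over 16 genes, against 0.098 over all genes. Of the 16, 3 were lower (18.8%, against 12.2% of all genes) and none was higher. TOMM6, a small TOM subunit, was at 28.5 FPKM in the USP22 knockdown and 169 FPKM in the control, and the chaperone TIMM8B at 15.3 FPKM in the knockdown and 85.9 FPKM in the control. The pore TOMM40 was the remaining one, at 9.05 FPKM in the knockdown and 44.4 FPKM in the control. TOMM70, the receptor for carrier precursors, was at 23.3 FPKM in the knockdown and 12.1 FPKM in the control, and TIMM9 at 14.4 FPKM in the knockdown and 8.58 FPKM in the control. Once the GC trend was removed, 6 of the 16 were lower and none higher, at a median of -0.89, where 8.92% of all genes were lower and 8.45% higher at a median of 0.0025.

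Other transport genes of the mitochondrial membranes showed no common direction. Of 6 calcium uniporter genes 2 were higher (33.3%, against 24.1% of all genes) and none lower (against 12.2%), with a median of 0.67. The pore MCU was at 24.4 FPKM in the USP22 knockdown and 11.1 FPKM in the control, and the gatekeeper MICU2 at 6.44 FPKM in the knockdown and 1.62 FPKM in the control. With the GC trend removed that median was 0.090, with none higher and 1 lower (MCUB, at -1.69). Over all genes 8.45% were then higher and 8.92% lower. The 3 outer-membrane porins were inside 2-fold at ratios from -0.45 to 0.39, as were MTCH1, MTCH2 and UCP2, family relatives with other symbols, at -0.92 to -0.14, although MTCH2 was at -1.09 with the GC trend removed. Of 5 sideroflexins 1 was lower (20%, against 12.2% of all genes). This was SFXN2, at 0.225 FPKM in the knockdown and 2.35 FPKM in the control. In the malate-aspartate shuttle, which runs through SLC25A11 and SLC25A13, the matrix enzyme MDH2 was lower, at 67.0 FPKM in the knockdown and 135 FPKM in the control, and the cytosolic MDH1 was higher, at 15.5 FPKM in the knockdown and 7.11 FPKM in the control. Of the 4 shuttle enzymes listed, MDH2 alone was lower (25%, against 12.2% of all genes) and MDH1 alone higher (25%, against 24.1%). Both MDH enzymes were inside 2-fold with the GC trend removed, at -0.76 for MDH2 and 0.55 for MDH1, and SFXN2 was at -1.71.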

How the data were processed

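RNA-seq of 1 Huh7 library with USP22 shRNA and 1 with control shRNA was used, grouped by the labels. The authors deposited 1 value per gene, read here as FPKM. HISAT2 2.0.4, StringTie 1.3.0 and GRCh37 are named in the submitters' processing notes without roles. The annotation and the choice of genes are not given in the sources used here. Low values were searched for steps of whole reads over 4000 step sizes, and 20.1% (USP22 knockdown) and 18.2% (control) lay within 0.1 of a whole multiple, where an even spread gives 20%, and read depth could not be recovered.

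Ratios used a pseudocount of 1, a mean of at least 1 FPKM and a 2-fold rule. GC content and length came from the longest protein-coding transcript of GENCODE 29, matched by Ensembl identifier (11836 genes, 98.8%), as did exon overlaps. The GC trend was removed with a lowess curve of 30% span (statsmodels 0.14.6), checked on simulated data. The simulation had a straight trend, little scatter and changes well past 2-fold, so it does not test calls near 2-fold. RefSeq promoters were matched by symbol. Carriers past 2-fold and the 3 of highest mean per class were given values, with others added. Some items are not reported here. The members, lists and rules were chosen with earlier results of these data known. Alternatives were other pseudocounts, filters, scalings (TMM trimmed 30% of ratios and 5% of levels at each end) and rules of size, and, added after the data were seen, joint removal of GC and length trends.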

Additional observations from a re-analysis of the deposited data

How the results depend on the processing

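The carrier median was -0.15 as reported. It was -0.17 with a pseudocount of 0.1, -0.11 with 5, -0.19 with no filter, -0.42 with a mean of at least 5 FPKM, -0.25 when centred on the median of all genes, -0.31 with TMM scaling, -0.024 when rescaled without mitochondrially encoded genes and -0.19 with the GC trend removed, and it lay below the median of all genes under each of these. Centring moves both medians by the same amount and could not change their order. TMM scaling and the rescaling apply a single factor per library and moved both medians by similar amounts. The count of higher carriers was 6 of 36 as reported, against 24.1% of all genes. It was 0 of 36 with a pseudocount of 5 (8.71% of all genes) and 0 of 20 with a mean of at least 5 FPKM (20.2%). At 1.5-fold it was 12 of 36 (35.6%). It was 1 of 36 with the GC trend removed (8.45%) and 1 of 36 with GC and length trends removed (8.17%). The count of lower carriers ranged from 4 with a pseudocount of 5 (5.24% of all genes) to 9 at 1.5-fold (24.2%). With GC alone and with GC and length removed, 3 higher carriers changed sign: SLC25A30 (-0.056 and -0.046), SLC25A32 (-0.18 and -0.16) and SLC25A40 (-0.14 and -0.15). MPC1, SLC25A10 and SLC25A23 stayed at least 2-fold lower under all 10 alternatives. SLC25A22 did so under 8 of the 9 whose filter it passed, the exception being a pseudocount of 5 (-0.99). Another filter or rule of size leaves a gene's own ratio as it was, so those alternatives could not undo these calls. TMM scaling moved the median of all genes to -0.049 and rescaling without mitochondrially encoded genes to 0.24, against 0.098 as reported. The rescaled median was over the 10522 genes that then passed the filter, against 10195 as reported. GC removal re-centres ratios at each GC level. The causes of these changes were not tested. With 1 library per group no replicate could be left out. No paired analysis was possible because each group has 1 library and the result comes from no test.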
